A study of Mus musculus with 4 samples.

Results

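Cathepsins are the main proteases of the lysosome. The genes described here are Ctsa, Ctsb, Ctsc, Ctsd, Ctse, Ctsh, Ctsk, Ctsl, Ctss and Ctsz, chosen by name, each with an array probe that carried its symbol alone. Other cathepsins on the arrays, such as Ctsf and Ctsw, are not among these 10 and are set beside them further on. All 10 were measured, by 14 of the 28845 probes, among 13705 genes with a value. Their transcripts were compared on 4 two-colour arrays of liver RNA from male mice of the inbred strain C57Bl/6J. The diets were a combined atherogenic and high-fat diet given for 24 weeks, the same for 6 weeks, an atherogenic diet alone for 24 weeks, and an atherogenic diet alone for 6 weeks (here "plain"). Each had 1 array, with amplified RNA of the diet group in Cy5 and of chow-fed mice in Cy3. The labels give the chow group the same duration as the diet, but state none for the chow mice of the plain 6-week array. Diet composition, age, the number of mice behind an RNA and whether arrays shared a chow sample are unstated in the labels and the design text.

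Cathepsins fall into classes by the residue that cuts the peptide bond. Most are cysteine proteases of the papain family, while cathepsins D and E are aspartic proteases and cathepsin A is a serine carboxypeptidase. They are made as inactive precursors, sorted to the lysosome and activated at acid pH, and cystatins and stefins inhibit the cysteine members. In liver, hepatocytes and Kupffer cells, the resident macrophages, both hold lysosomes. Cathepsin S is known for its high expression in macrophages and other antigen-presenting cells.

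Values are log2 ratios of diet over chow, so 1 is a 2-fold higher signal with the diet. The folds below take the deposited ratios to be base 10 logarithms, a base that their spread led to and no source states. On the 4 arrays the median over all genes lay between -0.01 and 0.05 and the SD over genes between 0.35 and 0.52. Over genes, which are not independent replicates, ratios correlated more closely within a diet (Pearson r 0.82 with high fat and 0.72 with the plain diet) than within a duration (0.61 at 24 weeks and 0.45 at 6 weeks). Ratios carry no expression level, so neither the tissue label nor the abundance of a cathepsin could be checked. With 4 arrays the precision is limited throughout. In whole liver a change in the number of cells of a type and a change in RNA per cell cannot be told apart. The diet was in Cy5 on every array, so a preference of a probe for a dye and a change by diet cannot be told apart either.

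The endopeptidase cathepsin S had by far the highest ratio of the family. Ctss stood at 2.93 on the high-fat 24-week array, 2.12 on the high-fat 6-week array, 2.34 on the plain 24-week array and 1.89 on the plain 6-week array. These are signals 7.64, 4.36, 5.07 and 3.72 times those of chow. All 4 ratios lay far above those of every other cathepsin on the same array. Ctss rose by 2.32 ± 0.17 on average (SE over 4 arrays; limma adjusted p = 0.00188), or 5.0-fold, the highest mean but 5 among 13705 genes. It was the only member at least 2-fold higher on all 4 arrays, which 0.299% of all genes were.

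Cathepsin K, a papain-family collagen-degrading protease best known from osteoclasts, gave the opposite picture. Ctsk had ratios of 0.11 and -0.01 on the high-fat arrays (24 and 6 weeks) and of 0.05 and 0.16 on the plain arrays (24 and 6 weeks). Every array lay close to chow, and the mean of 0.08 ± 0.08 did not pass in limma (adjusted p = 0.552; 95% interval -0.11 to 0.27). Ctsk and Ctss lie next to each other on mouse chromosome 3, on the same strand, with the long non-coding RNA gene Gm40096 alone between them in the RefSeq annotation. The neighbours thus differed on every array, with Ctss highest of the 10 and Ctsk close to chow.

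The 250 bases before the gene starts are shown for this pair and for Ctsc and Ctsd, the members with the next highest means, from RefSeq on GRCm38.p6. Promoter entries were found for 7 of the 10 members, 8 windows in all. The windows are chr3:95526536-95526785 (plus strand), chr3:95498960-95499209 (plus strand), chr7:88277835-88278084 (plus strand) and chr7:142387828-142388077 (minus strand), each written 5′ to 3′ along the gene. Capitals mark matches, on either strand, to CACGTG (the palindromic E-box that forms the core of sites for TFEB, a regulator of lysosomal genes), GAGGAAGT (a site of the myeloid factor PU.1), GGGCGG (the GC box) and TATAAA (the TATA box).
Ctss: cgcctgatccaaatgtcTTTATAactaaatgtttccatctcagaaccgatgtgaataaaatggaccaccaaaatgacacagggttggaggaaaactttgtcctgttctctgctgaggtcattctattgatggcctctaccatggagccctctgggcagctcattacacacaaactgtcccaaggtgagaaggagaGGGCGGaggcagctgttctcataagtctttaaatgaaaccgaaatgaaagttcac
Ctsk: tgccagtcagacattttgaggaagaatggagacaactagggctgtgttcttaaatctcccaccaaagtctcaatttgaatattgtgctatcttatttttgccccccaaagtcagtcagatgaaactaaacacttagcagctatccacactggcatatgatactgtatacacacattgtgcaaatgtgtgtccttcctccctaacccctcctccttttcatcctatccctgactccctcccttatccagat
Ctsc: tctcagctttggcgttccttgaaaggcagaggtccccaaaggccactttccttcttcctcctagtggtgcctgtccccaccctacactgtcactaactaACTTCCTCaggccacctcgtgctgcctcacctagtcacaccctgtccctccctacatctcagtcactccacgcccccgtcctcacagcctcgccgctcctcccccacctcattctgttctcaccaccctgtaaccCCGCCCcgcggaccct
Ctsd: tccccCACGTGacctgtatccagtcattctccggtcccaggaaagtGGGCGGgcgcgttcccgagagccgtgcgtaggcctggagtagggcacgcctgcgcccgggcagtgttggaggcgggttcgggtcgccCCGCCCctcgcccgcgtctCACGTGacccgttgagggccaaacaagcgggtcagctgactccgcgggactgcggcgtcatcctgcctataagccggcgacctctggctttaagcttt
The Ctsd window held CACGTG at 2 places, starting 245 and 98 bases before the gene start, and GGGCGG at 2 more. The Ctsc window held GAGGAAGT 151 bases and GGGCGG 16 bases before the start. The Ctss window held GGGCGG 55 bases before the start and TATAAA 233 bases before it. The Ctsk window held no match to any motif searched. CACGTG also occurred in a Ctsa window and in the Ctsl window, which makes 3 of the 8 windows, against 6.02% of 32851 mouse promoter windows of the same length. The longer TFEB-family site, CACGTG with GT before it and AC after it, was in none of the 8 windows and in 0.24% of all. GGGCGG was in 4 of the 8 and 32.7% of all, GAGGAAGT in 1 of the 8 and 2.44% of all, and TATAAA in 1 of the 8 and 12.4% of all. These are exact matches of letters, not measured binding, and sites that differ by a letter were not counted.

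**Figure D1:**
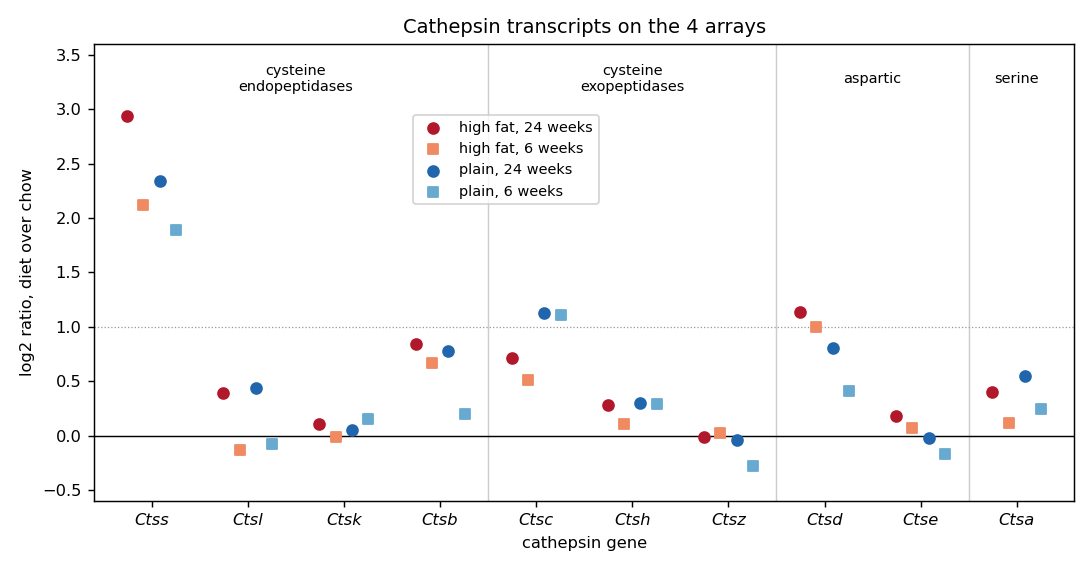
Log2 ratios of diet over chow (vertical axis) for the 10 cathepsin genes (horizontal axis), grouped by protease class, with 1 point for each of the 4 arrays and the dotted line at a 2-fold higher signal. Ctss lies between 1.89 and 2.93, above every other member, and only Ctsc and Ctsd also reach or pass the dotted line.

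The other endopeptidases with a cysteine at the active site were Ctsb and Ctsl. Cathepsin B, which also trims dipeptides from the carboxy end, had 3 probes. Their mean was 0.84 and 0.67 on the high-fat arrays (24 and 6 weeks) and 0.78 and 0.20 on the plain arrays (24 and 6 weeks). Ctsb was above chow on every array and lowest on the plain 6-week array. It rose by 0.62 ± 0.12 (limma SE, 4 arrays; adjusted p = 0.0273), or 1.54-fold. The probes did not give the same size: AGmmB230111 averaged 0.98, AGmmB170301 averaged 0.44 and AGmmB061504 averaged 0.44. AGmmB061504 was the only Ctsb probe below chow on any array, at -0.35 on the plain 6-week array, where AGmmB230111 read 0.85. Fitted alone among all probes, AGmmB230111 passed (adjusted p = 0.00426), while AGmmB170301 (0.0653) and AGmmB061504 (0.201) did not.

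Cathepsin L, an endopeptidase found in lysosomes of most cells, split by duration. Ctsl was at 0.39 with high fat and 0.44 with the plain diet at 24 weeks, and at -0.14 with high fat and -0.08 with the plain diet at 6 weeks. Both 24-week arrays were above chow and both 6-week arrays below it. Its mean over the 4 arrays, 0.15 ± 0.13, did not pass (limma adjusted p = 0.45).

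Among the exopeptidases, cathepsin C removes dipeptides from the amino end and activates the granule serine proteases of neutrophils and cytotoxic lymphocytes. Ctsc was at 0.71 and 0.51 on the high-fat arrays (24 and 6 weeks) and at 1.12 and 1.11 on the plain arrays (24 and 6 weeks). Both plain arrays passed 2-fold and both high-fat arrays stayed under it. Ctsc rose by 0.86 ± 0.13 over the 4 arrays (adjusted p = 0.0117 in limma), 1.82-fold. Ctsh, an aminopeptidase with 3 probes, had means of 0.28 and 0.11 on the high-fat arrays and 0.30 and 0.29 on the plain arrays (24 and 6 weeks each). All 12 probe values were above 0, between 0.05 and 0.46. The mean of 0.25 ± 0.08 passed in limma before adjustment but not after it (adjusted p = 0.0994). Ctsz, a carboxypeptidase that removes single residues, was at -0.02 and 0.02 on the high-fat arrays and -0.04 and -0.28 on the plain arrays (24 and 6 weeks each). It was the only member with a negative mean, -0.08 ± 0.09, which did not pass (limma adjusted p = 0.583).

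The aspartic pair also diverged. Cathepsin D, an abundant endopeptidase of lysosomes, read 1.13 and 1.0 on the high-fat arrays (24 and 6 weeks) and 0.80 and 0.41 on the plain arrays (24 and 6 weeks). Both high-fat arrays were above both plain arrays, the reverse of Ctsc. Ctsd rose by 0.84 ± 0.13 over the 4 arrays (limma adjusted p = 0.0138), or 1.79-fold. Cathepsin E, its relative in immune cells and stomach, stayed near chow, with Ctse at 0.18 and 0.07 on the high-fat arrays and -0.02 and -0.17 on the plain arrays (24 and 6 weeks each) and a mean of 0.01 ± 0.09 (limma adjusted p = 0.928). Cathepsin A, which also protects beta-galactosidase and neuraminidase in the lysosome, was above chow on all 4 arrays. Ctsa read 0.40 and 0.12 on the high-fat arrays and 0.55 and 0.25 on the plain arrays (24 and 6 weeks each). The mean of 0.33 ± 0.10 likewise passed in limma before adjustment but not after it (adjusted p = 0.0795).

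**Figure D2:**
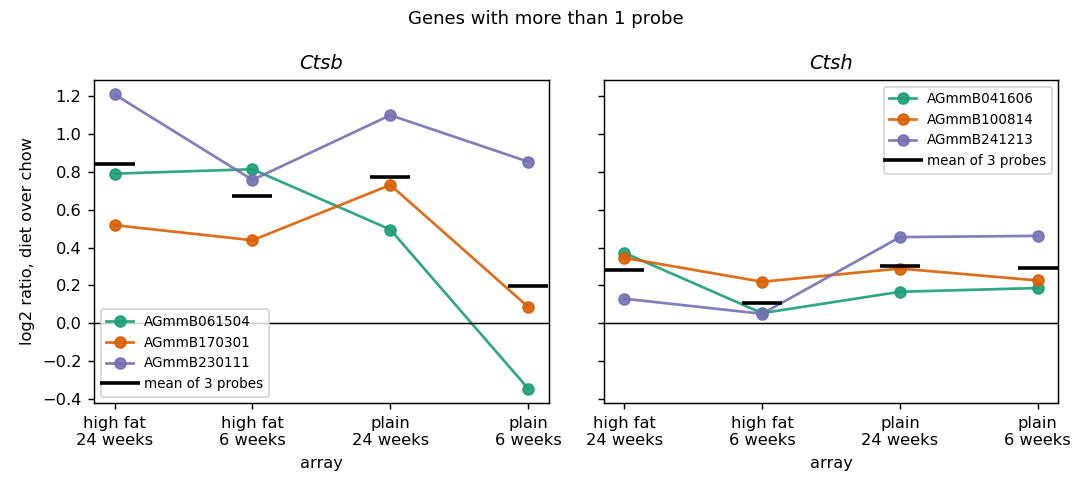
Log2 ratios of diet over chow (vertical axis) on the 4 arrays (horizontal axis) for each of the 3 probes of Ctsb (left) and of Ctsh (right), with lines joining the values of a probe and black bars for the mean of the 3. The Ctsb probes spread from -0.35 to 0.85 on the plain 6-week array, while all Ctsh probe values lie between 0.05 and 0.46.

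The first comparison takes all 4 arrays together and asks which cathepsin transcripts differed between diet-fed and chow-fed livers. Of the 10 members, Ctss, Ctsc, Ctsd and Ctsb rose (limma, mean of 4 arrays against 0, two-sided, Benjamini-Hochberg over 13705 genes), while 6.25% of all genes passed higher. None of the 10 passed lower, also at an unadjusted limma p under 0.05, where 5.72% of all genes passed lower after adjustment and 14.3% before it. The order of the means was Ctss, Ctsc, Ctsd, Ctsb, Ctsa, Ctsh, Ctsl, Ctsk, Ctse and Ctsz. Ctsc and Ctsd, at 0.86 and 0.84, differed by less than the SE of either, and the 95% intervals of neighbours from Ctsc downward overlapped. That of Ctss, 1.92 to 2.73, overlapped none, the next highest being Ctsc at 0.56 to 1.17. The median of the 10 means was 0.29, beside 0.00 over all genes. Ctsa, Ctsb, Ctsc, Ctsd, Ctsh and Ctss were above chow on all 4 arrays, as were 20.7% of all genes, and no member was below chow on all 4.

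The p-values rest on the spread between 4 conditions, not between animals. Without the plain 24-week array Ctss alone of the 10 passed (1 of 10), with 286 genes passing in all against 1640, and no member passed a one-sample test without moderation over genes, which called 9 genes of all.

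**Figure D3:**
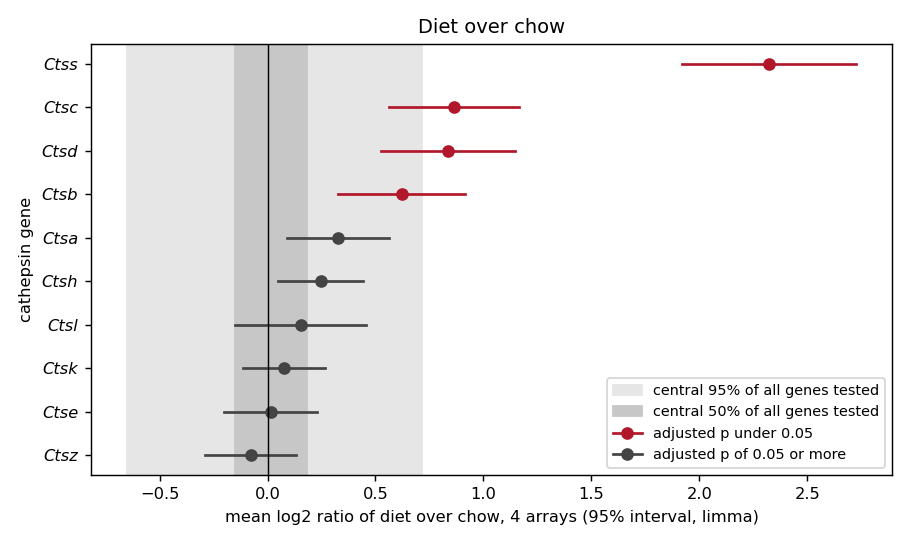
Mean log2 ratio of diet over chow (horizontal axis) with its 95% limma interval over 4 arrays for each cathepsin (vertical axis), in red where the adjusted p was under 0.05, over grey bands that hold the central 95% (-0.65 to 0.72) and 50% (-0.15 to 0.18) of all 13705 genes. Ctss, Ctsc and Ctsd have means above the wider band, and Ctsb, at 0.62, lies inside it.

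By size alone, 2 members were at least 2-fold higher than chow on the high-fat 24-week array (Ctss and Ctsd), where 0.963% of all genes were. Ctss alone was so on the high-fat 6-week array (0.671% of all genes), with Ctsd just short of the line. Ctss and Ctsc were so on the plain 24-week array (2.14% of all genes) and on the plain 6-week array (4.31% of all genes). No member was 2-fold lower on any array, while 1.55% and 1.33% of all genes were on the high-fat arrays (24 and 6 weeks) and 1.29% and 1.64% on the plain arrays (24 and 6 weeks). The median of the 10 members was 0.40 on the high-fat 24-week array, 0.11 on the high-fat 6-week array, 0.49 on the plain 24-week array and 0.22 on the plain 6-week array.

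High fat was set against the plain diet as the mean of high-fat minus plain ratios at 24 and at 6 weeks. No cathepsin passed after adjustment in limma with a duration term, where 3.99% of all genes passed higher and 7.25% lower. At an unadjusted p under 0.05 there were 3, against 11.7% of all genes higher and 21.1% lower: Ctsd and Ctss higher with high fat, and Ctsc lower. Ctsd differed by 0.46 ± 0.15 (adjusted p = 0.0784; 95% interval 0.12 to 0.80), with 0.33 at 24 weeks and 0.59 at 6 weeks. Ctss differed by 0.41 ± 0.15 (adjusted p = 0.114; 95% interval 0.05 to 0.77), with 0.59 at 24 weeks and 0.23 at 6 weeks. Ctsc differed by -0.50 ± 0.14 (adjusted p = 0.0603; 95% interval -0.83 to -0.17), with -0.41 at 24 weeks and -0.59 at 6 weeks. The sizes depend on how wide the ratios spread on each array, which was narrower with high fat. Once every array was given the same spread, Ctsd (0.86, adjusted p = 0.0238) and Ctss (1.49, adjusted p = 0.0144) passed in limma, and Ctsc moved to -0.13 (adjusted p = 0.467).

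Both high-fat arrays lay above both plain arrays for Ctsd, Ctse and Ctsz, 3 of 10 members, as for 25.3% of all genes. They lay below both plain arrays for Ctsc and Ctsh, 2 of 10, as for 36.2% of all genes. High fat was above plain at both durations for Ctsb, Ctsd, Ctse, Ctss and Ctsz, 5 of 10 against 31.1% of all genes, and below it for Ctsa, Ctsc, Ctsh and Ctsl, 4 of 10 against 43.3%. The directions were thus mixed within the family.

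The third comparison asks what differed between 24 and 6 weeks, as the mean difference within each diet. Every value is a ratio to chow, so a difference in duration is a difference between ratios. Ctss was higher at 24 weeks by 0.63 ± 0.15 (limma adjusted p = 0.343), by 0.81 with high fat and 0.45 with the plain diet. Ctsl was higher by 0.52 ± 0.14 (limma adjusted p = 0.354), by 0.53 with high fat and 0.51 with the plain diet. Ctsb was higher by 0.37 ± 0.16 (limma adjusted p = 0.498), by 0.17 with high fat and 0.58 with the plain diet. These 3 had an unadjusted limma p under 0.05. None of the 10 passed after adjustment, nor did any of the 13705 genes (0%), of which 1353 had an unadjusted p under 0.05 in limma (4.74% higher and 5.14% lower at 24 weeks).

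The direction was shared among these 10 genes more often than over all genes. In 8 of the 10 members, all but Ctsk and Ctsz, the 24-week ratio was above the 6-week ratio with both diets, against 30.5% of all genes. For Ctsa, Ctsb, Ctsl and Ctss both 24-week arrays lay above both 6-week arrays (13.9% of all genes). No member had lower ratios at 24 weeks with both diets, as 27.3% of all genes did. The direction was not particular to the 10. The median difference between 24 and 6 weeks was 0.19 over the 10 and 0.01 over all genes. Among lists described below, it was 0.11 for other lysosomal hydrolases, 0.18 for hepatocyte markers and 0.33 for bile duct markers. For Kupffer cell markers it was -0.30 and for macrophage markers -0.02. Measured cathepsins outside the 10 were mixed in direction. With both diets Ctsg, Ctsm, Ctsq and Cts7 were lower at 24 weeks and Cts3 was higher, while Ctsf, Ctsj, Ctsr, Ctsw and Cts6 differed in direction between diets. These counts describe 4 arrays and were not tested, and the members are not independent of each other.

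**Figure D4:**
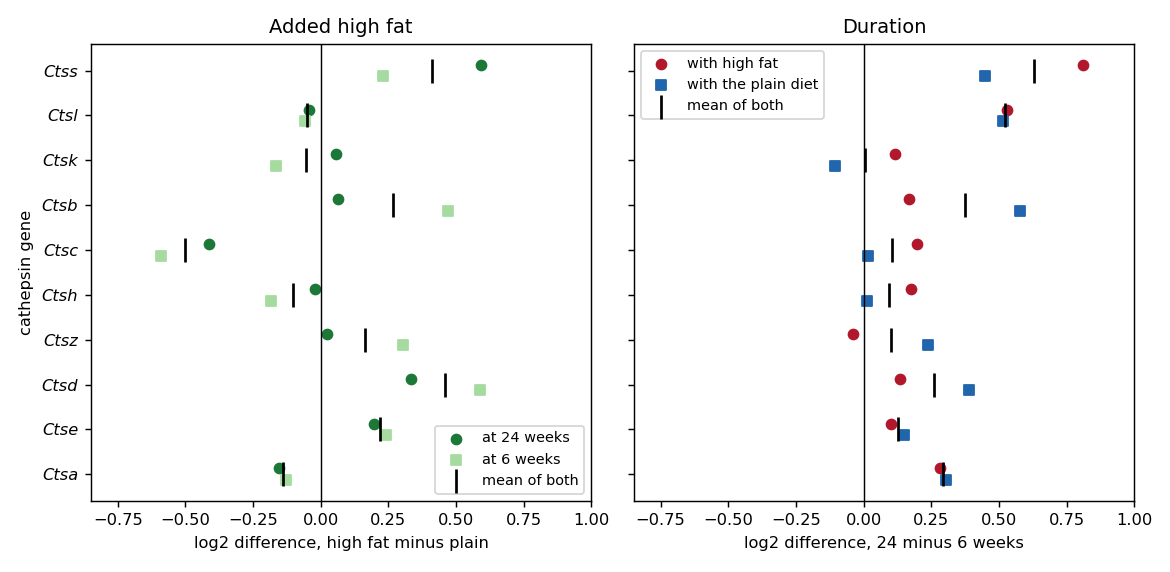
Log2 differences (horizontal axes) for each cathepsin (vertical axis): high fat minus plain at each duration (left) and 24 minus 6 weeks with each diet (right), with a black bar for the mean of both. Ctsd and Ctss lie right of 0 and Ctsc left of it at both durations in the left panel, and 8 of 10 members have both points right of 0 in the right panel.

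Other cathepsins and related genes were set beside the members, a list that also holds Lgmn, a cysteine protease of another family, and Ctsg, a serine protease. Of the 14 measured, 1 passed higher and 1 lower than chow, with a median of -0.06. Over all genes 6.25% passed higher and 5.72% lower, shares to set beside this count and those of the lists below. For added high fat the shares were 3.99% higher and 7.25% lower. Legumain, the asparagine-specific protease that processes cathepsin precursors, rose: Lgmn was at 0.23 and 0.41 on the high-fat arrays and 0.93 and 0.67 on the plain arrays (24 and 6 weeks each; mean 0.56 ± 0.13, limma adjusted p = 0.0386). Its call ended without any of the high-fat 6-week, plain 24-week or plain 6-week arrays (adjusted p between 0.0756 and 0.134). Ctsw, a cathepsin of cytotoxic lymphocytes, fell by 0.61 ± 0.09 on the log2 scale (limma adjusted p = 0.0127).

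Among cystatins, stefins and related genes, 1 of 13 measured passed, with a list median of -0.01. The list also holds plasma protein genes such as Ahsg, Fetub and Hrg, so it is not one of cathepsin inhibitors alone. Stefin B, an intracellular inhibitor of cysteine cathepsins, rose by more than any cathepsin but Ctss. Cstb was at 1.75 and 1.25 on the high-fat arrays and 1.61 and 2.14 on the plain arrays (24 and 6 weeks each), with a mean of 1.69 ± 0.14 (limma adjusted p = 0.00244). It was above every cathepsin but Ctss on each array, and above Ctss too on the plain 6-week array.

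Other parts of the lysosome moved to differing degrees. Of 41 measured hydrolases and cofactors, 7 rose and 2 fell (median 0.13). Npc2, which takes part in the export of cholesterol from the lysosome, rose by 1.25 ± 0.14, Hexa, a subunit of beta-hexosaminidase, by 0.80 ± 0.09 and the acid ceramidase Asah1 by 0.77 ± 0.16 (limma adjusted p = 0.00601, 0.00612 and 0.0316). The lysosomal alpha-mannosidase Man2b1 fell by 2.17 ± 0.13 on the log2 scale (limma adjusted p = 0.00128). Of 16 subunits of the proton pump that acidifies the lysosome, 7 rose and 1 fell (median 0.33). Atp6v1f, Atp6v1g1 and Atp6v0b rose by 0.84, 0.80 and 0.80, and Atp6v0a2 was at -0.72 (limma adjusted p between 0.0119 and 0.0377). Of 20 membrane proteins of the lysosome, 2 rose: Cd63 by 1.67 ± 0.15 and Cd68 by 0.83 ± 0.09 (limma adjusted p = 0.00271 and 0.00479). Of 16 sorting factors and regulators, Tfeb alone passed, lower at -0.72 ± 0.10 (limma adjusted p = 0.00925), but its probes disagreed: AGmmB220611 averaged -1.47 and AGmmB030704 averaged 0.03.

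Macrophage markers were also set beside the cathepsins. Of 25 measured, 15 rose over chow and 7 were lower with high fat than with the plain diet after adjustment in limma, with list medians of 0.45 and 0.59 on the high-fat arrays and 0.90 and 0.94 on the plain arrays (24 and 6 weeks each). The lysozyme gene Lyz1 rose by 2.22 ± 0.08, the tetraspanin gene Cd9 by 1.75, the complement gene C1qb by 1.74 and the glycoprotein gene Gpnmb by 1.66 (limma adjusted p between 0.000807 and 0.00487). The list median was lower with high fat, where Ctss and Ctsd read higher and Ctsc lower, though no cathepsin passed for added high fat after adjustment in limma. Ratios spread less widely on the high-fat arrays, and the macrophage medians were not computed at a common spread. Of 8 Kupffer cell markers Cd5l rose by 0.74 and Vsig4 was lower at -1.33 (limma adjusted p = 0.0224 and 0.0306), with medians between 0.10 and 0.44. Of 11 genes of dendritic cells and antigen presentation 6 rose, led by H2-Aa at 2.29, H2-Eb1 at 1.69 and H2-Ab1 at 1.41, with H2-DMb1 at 1.30 (limma adjusted p between 0.0022 and 0.0181). Probes disagreed for H2-Ab1, where AGmmB181604 averaged -0.22 and the other 4 between 1.49 and 2.17, and for H2-Eb1, whose 7 probes averaged between 0.44 and 2.42.

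Markers of other cell types also moved, in part. Of 11 neutrophil markers, S100a9 and S100a8 rose by 2.70 and 2.34 and Elane was lower at -0.64 (limma adjusted p between 0.00487 and 0.00741). Of 13 lymphocyte markers, Nkg7 rose by 0.46 and Gzma by 0.36 (limma adjusted p = 0.0416 and 0.0472). Of 18 hepatocyte markers Apoh rose by 1.09 and Apoc3 was lower at -0.54 (limma adjusted p = 0.0245 and 0.0277), 10 were lower and 2 higher with high fat than with the plain diet, and the list medians were -0.55 and -0.85 on the high-fat arrays and 0.39 and 0.05 on the plain arrays (24 and 6 weeks each). Among the 10 lower genes, Alb, Ttr, Trf, Rbp4 and Ass1 had probes at or near values that many probes of an array shared. Every Trf probe, for example, read 0.588 on the plain 24-week array. Whether these repeats limit the measured size was not tested. Of 14 stellate cell and fibroblast markers 7 rose and 1 fell, with Col1a2 at 1.75, Vim at 1.41, Col3a1 at 1.03 and Dcn at 0.88 (limma adjusted p between 0.00352 and 0.011). The 3 Col3a1 probes disagreed, with means of 2.36, 0.96 and -0.22. Of 8 bile duct markers Tspan8 rose by 2.19 and Krt23 by 0.92, and of 10 endothelial markers Vwf rose by 0.34 (limma adjusted p between 0.00299 and 0.038). The part of any of these cell types, macrophages included, in the cathepsin ratios was not tested.

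**Figure D5:**
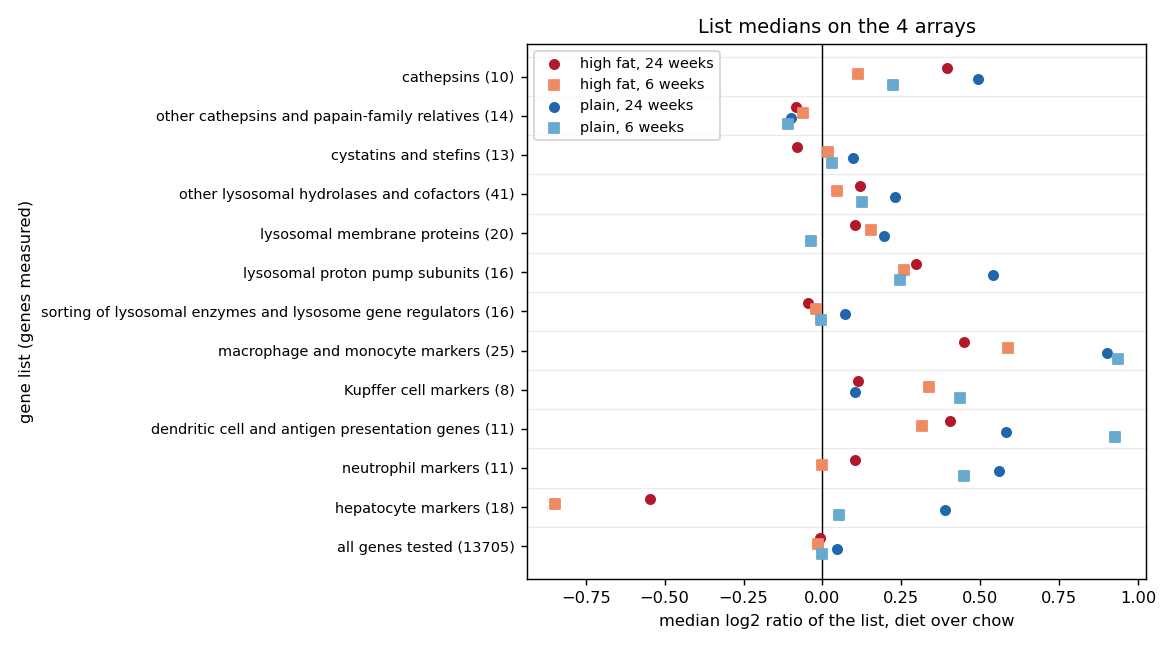
Median log2 ratio of diet over chow (horizontal axis) on each of the 4 arrays for the cathepsins, for related and lysosomal gene lists, for cell type markers and for all genes (vertical axis, genes measured in brackets). The cathepsin medians, 0.40 and 0.49 at 24 weeks against 0.11 and 0.22 at 6 weeks, separate by duration, while the macrophage medians separate by diet. Ratios spread less widely on the high-fat arrays. With all arrays given the same spread, the cathepsin medians were 0.51 and 0.44 at 24 weeks (high fat and plain) and 0.14 and 0.17 at 6 weeks. Macrophage medians at a common spread were not computed, so their separation by diet may depend on it.

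The genes most like the leading members were found by the root mean square difference of the 4 log2 ratios. Nearest to Ctss were Lcn2 (0.35), Lyz1 (0.36) and Tspan8 (0.40), and no gene lay within 0.2 of it. Nearest to Ctsc were Mpp1 (0.05), Rbm3 (0.05) and Abhd13 (0.10), with 42 named genes within 0.2. Nearest to Ctsd were Krtap19-9b (0.05), Tm4sf4 (0.09) and Atg13 (0.10), with 8 within 0.2. This likeness covers 4 arrays only.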

How the data were processed

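Per the labels' protocols and the design text, amplified liver RNA in Cy5 (diet) and Cy3 (chow) was hybridised to AceGene mouse oligonucleotide arrays, spots were read with GenePix Pro 4.1, and ratios were LOWESS-normalized in GeneSpring 7.2. No source used here gives the background correction or the spot filters. The deposited values are signed log10 ratios of diet over chow, with the base inferred from their spread, the direction set by the labelled dyes, and any centring beyond LOWESS unknown. Median deposited values were 0.006, 0.006, -0.005 and -0.019 on the high-fat 24-week, high-fat 6-week, plain 24-week and plain 6-week arrays.

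Values were converted to log2. Only probes measured on all 4 arrays were used, which dropped 975 of 28845. The platform annotation gave 1 symbol to 17637 probes, several to 64 and none to 11144. Symbols were updated by gene identifier to RefSeq GRCm38.p6, which did not match 252 probes; their platform symbols were kept. Probes of a gene were averaged (13705 genes, 2759 with more than 1 probe). Probe coordinates are not printed, as the arrays name no build.

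Tests used limma 3.58.1 in R 4.3.3 (lmFit and eBayes, two-sided, Benjamini-Hochberg over all genes, threshold 0.05): the mean of 4 arrays against 0 with 3 residual degrees of freedom, and an additive model of high fat and duration with 1. The tests were tested on simulated data. The simulated noise was independent between arrays, so it cannot show how the tests behave where arrays of a diet resemble each other. Named were all members, up to 4 genes per list past the threshold by size for diet over chow (2 by size where none passed), and the 3 genes most like each of the 3 members with the largest means. The genes given in the last part were chosen after their values were seen. The members and lists were chosen with earlier results of these data known. Alternatives changed centring, scaling, the value of a gene, the model, the threshold, missing values and the arrays used. Leaving out probes at repeated values was chosen after seeing the data; none of the 14 cathepsin probes lay within 0.003 (log10) of such a value.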

Additional observations from a re-analysis of the deposited data

Results flagged for a closer look

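Ctse had both high-fat arrays above chow (0.18 and 0.07) and both plain arrays below it (-0.02 and -0.17). The difference of 0.22 did not pass in limma (adjusted p = 0.305).

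Ctsl had both 24-week arrays above chow (0.39 and 0.44) and both 6-week arrays below it (-0.14 and -0.08). The difference of 0.52 did not pass in limma (adjusted p = 0.354).

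Ctsh on the high-fat 6-week array, at 0.11, lay far from the other arrays, which spanned 0.28 to 0.30. By chance such a gap is found in about 1 in 20 genes.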

How the results depend on the processing

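No paired analysis was possible because each condition had 1 array, so replicate numbers pair nothing. Conditions matched by duration or diet entered the additive model and the random blocks. Of the 10 cathepsins, 4 rose over chow; this count was 0 with a one-sample test without moderation and 1 at an adjusted p of 0.01, and ranged from 1 to 4 with an array left out. Ctss passed in 17 of 18 alternatives, Ctsc and Ctsd in 15 each and Ctsb in 12. Not every alternative could change a call. A threshold of 0.10 can only add calls, and leaving out repeated values dropped no cathepsin probe. Other ways to combine probes left the ratios of Ctss, Ctsc and Ctsd, with 1 probe each, as they were. For Ctsb, the fit over all probes and the choice by largest mean both took AGmmB230111, its probe with the smallest p. Without the plain 24-week array Ctsb (adjusted p = 0.128), Ctsc (0.0708) and Ctsd (0.08) lost their calls. Ctsb also lost it without the high-fat 24-week (0.0816) or high-fat 6-week array (0.0776) and with diet type as a random block (0.113). Ctsa and Ctsh passed with terms for diet and duration and with duration as a random block. The mean of Ctse, 0.01, ranged from -0.0388 to 0.0764 with an array left out and was below 0 without either high-fat array. For added high fat 2 cathepsins passed higher with arrays scaled to a common spread, and 1 higher and 1 lower at an adjusted p of 0.10. Read as natural or base 2 logarithms, the cathepsin median would be 0.17 or 0.12 on the high-fat 24-week array and 0.21 or 0.15 on the plain 24-week array. Over all genes, 1640 passed for diet over chow, 4501 with duration and 405 with diet type as a random block, 5219 with terms for diet and duration, 300 at an adjusted p of 0.01, 2909 at 0.10, and between 286 and 1179 without 1 array. Added high fat called 1541 genes, 3269 at 0.10 and 23 at 0.01. Of 38 genes named from other lists, 37 lost their call with a one-sample test without moderation and 17 at an adjusted p of 0.01. Without the plain 24-week array 17 lost it, and with diet type as a random block 15 did. With an array left out the additive model has no residual degrees of freedom, so those fits were not run.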

Other observations

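Several genes near the cathepsins were chosen after their values were seen. Cst3, the secreted inhibitor cystatin C, ordered its arrays as Ctsd and stood at 1.15 and 0.63 on the high-fat arrays and 0.60 and 0.08 on the plain arrays (24 and 6 weeks each). It was higher with high fat by 0.55 ± 0.14 (limma adjusted p = 0.0466), while its mean over chow, 0.62 ± 0.17, did not pass (limma adjusted p = 0.0592). Cd74, the invariant chain that cathepsin S degrades during antigen presentation, rose by 1.15 ± 0.09 (limma adjusted p = 0.0019), at 1.32 and 1.01 on the high-fat arrays and 1.17 and 1.10 on the plain arrays (24 and 6 weeks each). Its 3 probes disagreed: AGmmB110217 averaged 2.09 and AGmmA030222 averaged 1.36, while AGmmC220901 lay between -0.14 and 0.38 and did not pass alone (limma adjusted p = 0.997). Tfe3, a TFEB relative, was at 0.08 and 0.10 on the high-fat arrays and -0.69 and -0.76 on the plain arrays (24 and 6 weeks each), a difference that passed in limma (adjusted p = 0.021).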
